A study of Mus musculus with 5 samples.

Results

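The NR4A family is the group of nuclear receptor genes made up of Nr4a1 (NCBI gene 15370), Nr4a2 (NCBI gene 18227) and Nr4a3 (NCBI gene 18124). Its members were taken as every probe set, a group of array probes against the same transcript, whose platform annotation names 1 of these genes and no other. That rule found 10 probe sets, 1 for Nr4a1, 6 for Nr4a2 and 3 for Nr4a3, out of 34945 that name a single gene, and 3 of 18193 genes. RNA came from adipocytes made from C3H10T1/2, an established mouse mesenchymal cell line that forms fat cells under an adipogenic cocktail, and each of 5 groups was measured on 1 Affymetrix array. The groups were cells given the solvent DMSO, butein or sulfuretin for 6 h, cells given a second DMSO control (DMSO1) for 6 h, and cells given resveratrol for 6 h, for which the labels name DMSO1 as the control. All 5 were fully differentiated, and all had received new medium on the preceding day. Butein is a chalcone, sulfuretin an aurone and resveratrol a stilbene, and the labels state no dose for any of them. The series was set up to look for shared factors that favour or oppose fat cell formation.

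NR4A proteins (Nr4a1 is also called Nur77, Nr4a2 Nurr1 and Nr4a3 Nor1) are called orphan receptors. In their ligand-binding domain bulky side chains fill the space where other nuclear receptors hold a ligand, and their activity is known to depend much on how strongly their genes are transcribed. They bind DNA as monomers or dimers, and Nr4a1 and Nr4a2 also pair with retinoid X receptors. Their genes are immediate early genes, transcribed within minutes to hours after cAMP, growth factors, calcium or stress, through factors such as CREB, MEF2 and SRF. In fat and muscle they are known to respond to adrenergic signals and to act on genes of glucose and lipid use.

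The promoters show what the members share and where they differ in sequence. Whether this bears on their transcript levels was not tested. CREB binds the cAMP response element (CRE), whose full form is TGACGTCA and whose 5-base core is TGACG, or CGTCA on the other strand. In the promoters from RefSeq (build GRCm38.p6), 250 bases before to 50 after the annotated start, each member held 4 cores, which are in capitals here, on the gene's own strand 5′ to 3′.
Nr4a1, chr15:101266596-101266895, plus strand: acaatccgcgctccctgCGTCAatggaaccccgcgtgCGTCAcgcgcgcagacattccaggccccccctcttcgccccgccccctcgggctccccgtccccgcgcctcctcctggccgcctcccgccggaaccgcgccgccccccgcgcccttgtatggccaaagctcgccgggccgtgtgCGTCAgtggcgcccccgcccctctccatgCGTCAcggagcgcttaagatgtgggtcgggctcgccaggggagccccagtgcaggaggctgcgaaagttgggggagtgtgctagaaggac
Nr4a2, chr2:57123954-57124253, minus strand: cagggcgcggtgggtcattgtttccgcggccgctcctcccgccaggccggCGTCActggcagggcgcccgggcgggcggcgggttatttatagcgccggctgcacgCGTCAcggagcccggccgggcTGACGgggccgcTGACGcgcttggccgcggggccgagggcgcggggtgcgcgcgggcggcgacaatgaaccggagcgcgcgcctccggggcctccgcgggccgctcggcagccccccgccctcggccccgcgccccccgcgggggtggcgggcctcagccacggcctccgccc
Nr4a3, chr4:48045055-48045354, plus strand: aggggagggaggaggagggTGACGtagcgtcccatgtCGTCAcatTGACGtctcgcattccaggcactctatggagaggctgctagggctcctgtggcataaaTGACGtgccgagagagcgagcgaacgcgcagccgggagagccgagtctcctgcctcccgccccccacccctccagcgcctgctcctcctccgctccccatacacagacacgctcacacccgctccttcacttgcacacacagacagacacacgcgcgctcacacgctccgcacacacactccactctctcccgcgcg
Of 32851 promoters of the same length, 20.8% held at least 1 core and 0.231% at least 4. Among the 6056 promoters whose GC content lay in the members' range (64.7% to 81.7%), the shares were 32.7% and 0.578%. In Nr4a1 the cores began 233, 213, 69 and 40 bases before the start, all as CGTCA. In Nr4a2 they began 200, 144, 123 and 111 bases before it, and in Nr4a3 at 231, 213, 205 and 147. No full CRE was found in the 3 windows (1.79% of promoters hold one).

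Other motifs, searched on both strands, were few. The antioxidant response element TGACNNNGC matched once in Nr4a2 (TGACGGGGC) and once in Nr4a3 (TGACGTAGC), each overlapping a CRE core, and not in Nr4a1 (12.4% of promoters hold a match). A MEF2 site matched in Nr4a2 (3.19% of promoters). No member's window matched AAAGGTCA, the NBRE that NR4A monomers bind (1.51% of promoters), the heat shock element GAANNTTC (7.86%), the AP-1 site TGANTCA (7.81%) or the CArG box bound by SRF (1.63%). A match describes letters only.

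**Figure D1:**
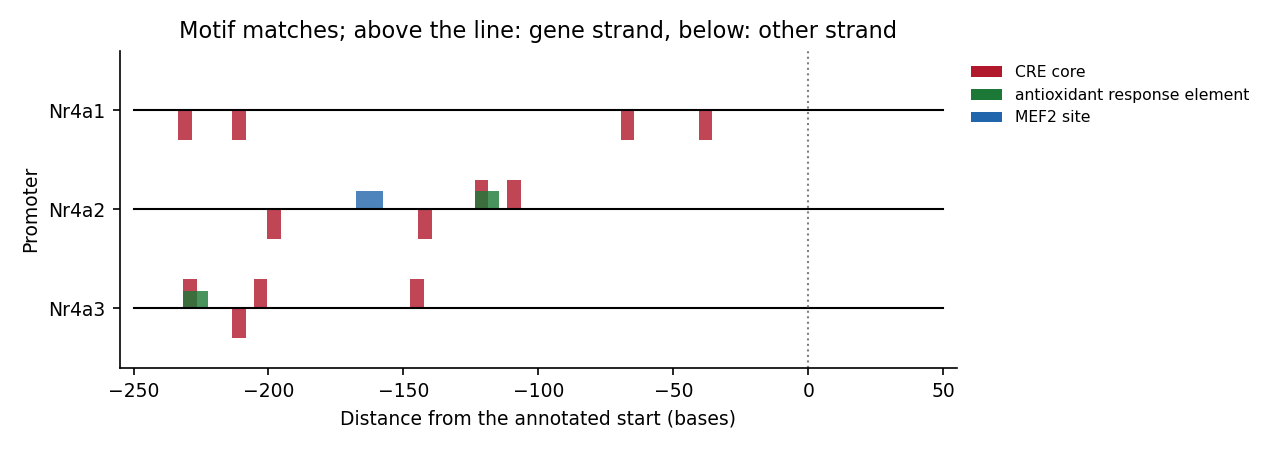
Motif matches in the promoter of each NR4A gene, by distance in bases from the annotated start (dotted line); bars above a line lie on the gene's strand and bars below it on the other, and bar heights separate the motifs only. Each gene has 4 CRE cores (red); all 4 of Nr4a1 lie on the other strand, and the nearest begins 40 bases before the start.

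Values are deposited intensities on a linear scale, and differences are log2 differences between a treated array and its control. Values of the DMSO, butein and sulfuretin arrays lie on one scale (median intensity 6.85 on each) and those of DMSO1 and resveratrol on another (medians 11.1 and 11.5), so levels were compared within each set. A difference of at least 2-fold was called higher or lower. With 1 array in a group there is no error from replicates and no test within a comparison. A floor was set at intensity 8.39, the median level over all probe sets, and a gene was counted where its brightest probe set reached it on at least 1 array, as for 12439 genes and all 3 members. Only Nr4a1 and the brightest Nr4a3 probe set reached it on all 5 arrays.

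Nr4a1 was the NR4A gene that differed past 2-fold with a compound. Its single probe set, 1416505_at, read 74.0 in DMSO, 372 with butein and 76.8 with sulfuretin, and 63.7 in DMSO1 and 134 with resveratrol. The butein array was thus high, the resveratrol array higher than its control, and the sulfuretin array close to DMSO. It lay at percentile 84.1 of all probe sets in DMSO, 95.9 with butein and 84.4 with sulfuretin, and at 76.9 in DMSO1 and 86.8 with resveratrol.

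**Figure D2:**
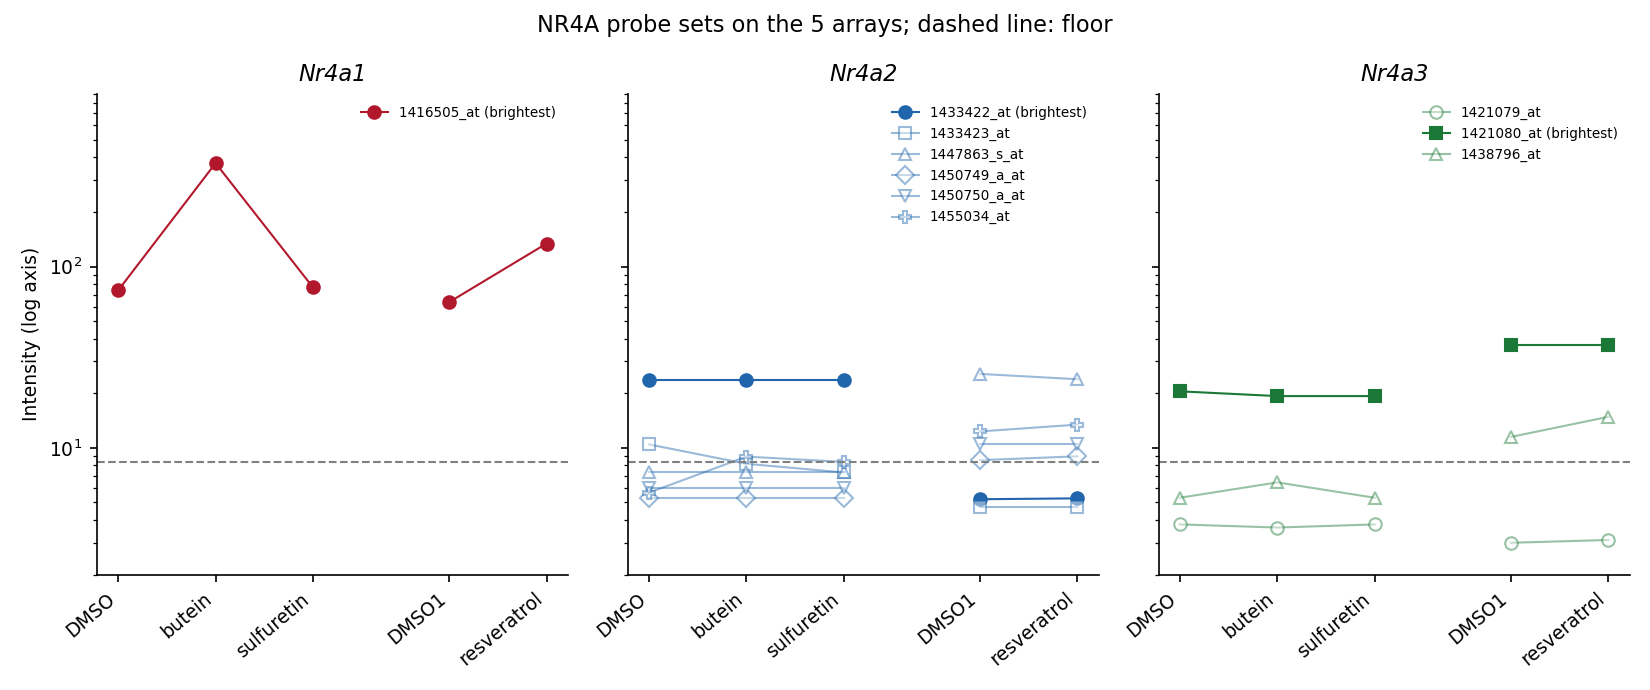
Intensity (log axis) of each of the 10 NR4A probe sets on the 5 arrays, 1 panel per gene; filled markers are the brightest probe set of a gene, lines join arrays on one scale, and the dashed line is the floor at 8.39. Nr4a1 reads 372 with butein against 74.0 in DMSO and 134 with resveratrol against 63.7 in DMSO1, while the brightest probe sets of Nr4a2 and Nr4a3 are nearly level within each set of arrays.

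With butein, Nr4a1 was 5.02-fold higher than in DMSO, a log2 difference of 2.33. It was 1 of 3 members called, where 2.03% of counted genes were called higher and 0.297% lower, and it ranked 44 of 12439 from the highest. With sulfuretin it was 1.04-fold higher (0.05 on the log2 scale), and 0 of 3 members were called, where 0.193% of genes were higher and 0.0482% lower. With resveratrol it was 2.10-fold higher than in DMSO1 (1.07), again the 1 of 3 members called, where 0.0804% of genes were called higher and 0.0643% lower. It ranked 9 of 12439 there, just past the criterion.

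The resveratrol value depended on the control. Nr4a1 was lower in DMSO1 than in DMSO by 1.16-fold as deposited (log2 difference -0.22). After the 5 arrays were quantile normalized together this difference was -0.87, and Nr4a1 read 87.2 in DMSO, 410 with butein, 88.6 with sulfuretin, 47.6 in DMSO1 and 110 with resveratrol. On that joint scale resveratrol was 1.21 above DMSO1 but 0.34 above DMSO, whereas butein was 2.23 above DMSO and 3.11 above DMSO1. With the solvent arrays treated as replicates in limma, which leaves 1 residual degree of freedom, no member passed at an adjusted p of 0.05. For Nr4a1 with butein the adjusted p was 0.468 on the deposited values (unadjusted 0.00047) and 0.985 after joint quantile normalization (unadjusted 0.0229). Of all 45037 probe sets 0.0377% and 0% passed for butein in these fits (553 and 607 had an unadjusted p under 0.05).

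**Figure D3:**
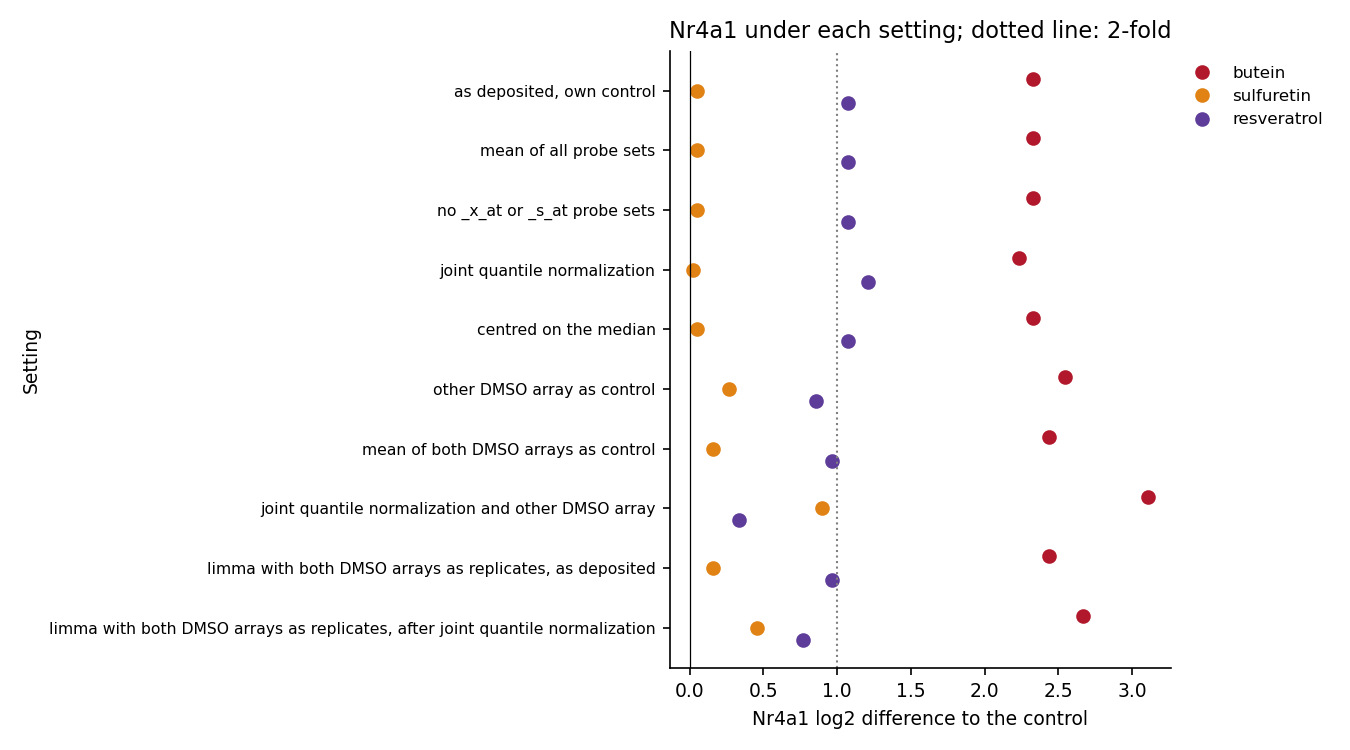
Nr4a1 log2 difference with each compound under each normalization, control or fit tried; the dotted line marks 2-fold. Butein stays between 2.23 and 3.11, sulfuretin between 0.02 and 0.90, and resveratrol between 0.34 and 1.21, on both sides of 2-fold.

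Butein and sulfuretin, a chalcone and an aurone, share a control and can be set against each other directly. Nr4a1 was 4.84-fold higher with butein than with sulfuretin (sulfuretin minus butein -2.27), where 1.04% of counted genes were at least 2-fold lower with sulfuretin and 0.0965% higher. For the other 9 NR4A probe sets this difference lay between -0.28 and 0.06. In limma with the solvent arrays as replicates, on the assumption that a single treated array varies as those do, the 95% interval of the Nr4a1 difference ran from -3.85 to -0.70 on the deposited values and from -4.38 to -0.04 after joint quantile normalization (adjusted p = 1 over all probe sets in both). For the brightest Nr4a2 probe set it ran from -1.58 to 1.58 and from -6.07 to 6.09, and for that of Nr4a3 from -1.58 to 1.58 and from -0.79 to 0.80. The deposited intervals have the same width for all 3 genes, because their variance is pooled over all probe sets. It includes the scale difference between the solvent arrays (medians 6.85 and 11.1), which the butein and sulfuretin arrays do not have. They are thus not each gene's own error, and the limma p-values above for deposited values rest on the same variance. The doses behind this comparison are unknown. Resveratrol was not set against the other compounds.

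Nr4a2, the receptor best known for its part in dopamine neurons, gave low and uneven readings. Its 6 probe sets read between 4.72 and 25.6 over the 5 arrays, and none was at or above the floor on all of them. The brightest, 1433422_at, read exactly 23.7 in DMSO, with butein and with sulfuretin, and 5.21 in DMSO1 and 5.27 with resveratrol. On this probe set no compound differed from its control by more than 0.02 on the log2 scale, and the DMSO1 set was the low one.

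The other Nr4a2 probe sets gave the same count of 0 past 2-fold. With butein and with sulfuretin alike, 4 of 6 were exactly equal to DMSO (within 1e-06), 1 was higher and 1 lower. The higher one, 1455034_at, read 5.67 in DMSO, 8.95 with butein and 8.37 with sulfuretin (log2 differences 0.66 and 0.56), and 12.3 in DMSO1 and 13.4 with resveratrol (0.12). The lower one, 1433423_at, read 10.5 in DMSO, 8.17 with butein and 7.32 with sulfuretin (-0.36 and -0.51), and 4.72 on both remaining arrays. These 2 probe sets of the same gene went opposite ways, at levels close to the floor. Over all 45037 probe sets, 48.5% had exactly the DMSO value with butein, 47.4% with sulfuretin, and 52.0% of resveratrol values equalled those of DMSO1, so equality was common.

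Nr4a3, the family member known as Nor1, also had 0 probe sets past 2-fold with any compound. Its brightest probe set, 1421080_at, read 20.5 in DMSO, 19.3 with butein and 19.3 with sulfuretin, both 1.06-fold lower, and 36.8 in both DMSO1 and resveratrol. The dimmer 1438796_at read 5.31 in DMSO and with sulfuretin and 6.45 with butein (0.28), and 11.5 in DMSO1 and 14.8 with resveratrol (0.37). It was the one Nr4a3 probe set that was higher with both butein and resveratrol, by less than 2-fold and, in the butein set, from below the floor. Its difference was above that of 93.1% of all probe sets with butein and 99.2% with resveratrol. The third, 1421079_at, stayed between 2.998 and 3.78 and was under the floor on all 5 arrays.

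Probe sets that share a target record are not independent. In Nr4a2, 4 of the 6 probe sets came in pairs from 2 shared records, and in Nr4a3, 2 of the 3 came from 1 record. Nr4a1 rests on a single probe set, so its differences have no second reading on the array. Over the 10 probe sets, 1 was higher past 2-fold with butein (1.02% of all probe sets), 0 with sulfuretin (0.107%) and 1 with resveratrol (0.0355%), and none was past 2-fold lower (0.258%, 0.0333% and 0.0311%).

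The gap between the solvent arrays was wider than most of these differences. DMSO1 minus DMSO ran from -2.19 (1433422_at of Nr4a2) to 1.80 (1447863_s_at of Nr4a2), with 3 of 10 probe sets past 2-fold higher and 2 lower, where 15.8% of all probe sets were higher and 1.56% lower. The probe set 1447863_s_at read 7.32 in DMSO, butein and sulfuretin, 25.6 in DMSO1 and 23.9 with resveratrol, the reverse of 1433422_at. After joint quantile normalization 0 of 10 were past 2-fold higher and 2 lower (4.17% and 3.15% of all probe sets), the latter being 1433422_at (-2.60) and 1433423_at (-1.51), which share a target record. The other 4 Nr4a2 probe sets were then higher in DMSO1, by 0.23 to 0.98, so the sign of the Nr4a2 gap was not the same across its probe sets. For Nr4a3 the gaps on that scale were -0.04, 0.03 and 0.63, and the first belongs to the brightest probe set.

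**Figure D4:**
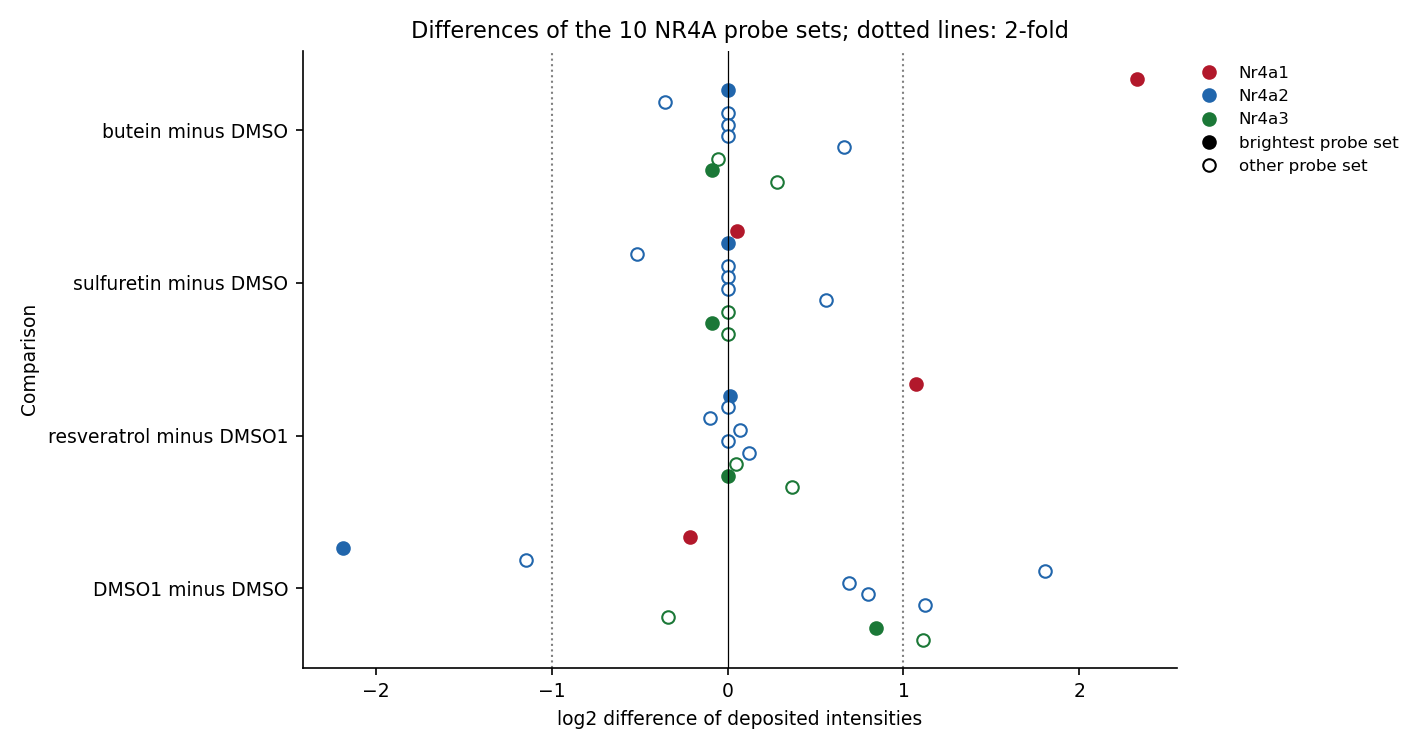
Log2 differences of the 10 NR4A probe sets for each treatment against its own control and for DMSO1 against DMSO; colours mark genes, filled points the brightest probe set, dotted lines 2-fold. Nr4a1 is the only point past 2-fold with butein (2.33) and resveratrol (1.07), and Nr4a2 points spread from -2.19 to 1.80 between the solvent arrays.

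Nr4a1 was also set beside the other nuclear receptors. Of 46 listed receptors outside the family, 41 had a named probe set and 28 were counted. With butein 1 of these 28 was past 2-fold, Rora, a receptor of the circadian clock, at 2.02-fold higher (58.3 in DMSO, 118 with butein). With sulfuretin and with resveratrol 0 of 28 were past 2-fold, in ranges of -0.38 to 0.46 and -0.36 to 0.35. These counts are near the shares over all counted genes (2.03% higher and 0.297% lower with butein, 0.193% and 0.0482% with sulfuretin, 0.0804% and 0.0643% with resveratrol) and say nothing particular about these receptors. The median was 0 in each comparison, as it was over all 12439 genes. Among the 31 counted receptors Nr4a1 ranked 1 with butein, 8 with sulfuretin and 1 with resveratrol.

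Listed genes that CREB and cAMP are known to induce were mostly higher with butein, as Nr4a1 was. The brightest probe sets of Nr4a2 and Nr4a3 were not. The list was chosen with earlier results of these data known, so its counts describe it and are not a test. Of 21 listed genes 20 had a named probe set and 18 were counted, and with butein 11 of these were past 2-fold higher and 1 lower, with a median of 1.33 against 0 over all genes, of which 2.03% were called higher and 0.297% lower. Atf3, a stress-induced repressor of the same bZIP class as CREB, was 20.6-fold higher, the antiproliferative gene Btg2 8.97-fold, Ier2 7.23-fold and Dusp1, a phosphatase that switches off MAP kinases, 6.58-fold. The 1 lower gene, Rgs2, which damps G protein signals, read 646 in DMSO and 263 with butein. In this list 6 genes had a larger butein difference than Nr4a1. The counted genes under 2-fold, all named here, were higher with butein by less. They were Pde4b (1.06-fold), Pde4d (1.12-fold), Ppargc1a (1.21-fold), Per1 (1.38-fold), Sik1 (1.40-fold) and Irs2 (1.63-fold). What raised the genes of this list was not tested.

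With sulfuretin 0 of the 18 were higher past 2-fold and 1, Rgs2, was lower (305 against 646 in DMSO, 2.12-fold), with a median of 0 (0.193% and 0.0482% of all counted genes). With resveratrol 2 were higher, Btg2 (2.18-fold) and Atf3 (2.17-fold), 0 lower, and the median was 0.27 (0.0804% and 0.0643% of all counted genes). Btg2 and Atf3 both exceeded Nr4a1. Of the 11 genes past 2-fold higher with butein, 10 were also higher with resveratrol by any amount, among them Crem (0.02) and Cebpb (0.03). Over all counted genes 34.0% were lower with resveratrol and 33.1% equal to DMSO1. With sulfuretin 8 of the 11 lay within 0.5 of DMSO, and Fos (-0.57), Cebpb (0.71) and Atf3 (0.86) did not. The share of all counted genes within 0.5 was not computed, so the count of 8 does not set these genes apart. Whether the 11 genes share the Nr4a1 pattern was not tested. The butein and sulfuretin differences share the DMSO array.

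The receptors' partners and upstream regulators come next. Of 19 listed, 18 were counted and 0 were past 2-fold in any comparison, with medians of -0.06 for butein, -0.05 for sulfuretin and 0 for resveratrol. The retinoid X receptor genes were expressed throughout. Rxra read 91.2 in DMSO, 83.0 with butein, 83.0 with sulfuretin, 114 in DMSO1 and 103 with resveratrol. Creb1, the CREB gene, read 81.8, 103 and 78.8 in the first set, and 116 on both arrays of the other. Rxra, Rxrb, Rxrg and Creb1 are named for their role. Among metabolic genes reported to respond to NR4A receptors, 13 of 16 had a named probe set, 9 were counted and 0 were past 2-fold, with a median of 0 in each comparison. At the shares called over all counted genes (2.03% higher with butein and under that elsewhere), counts of 0 among 18 and 9 genes are near the background. The largest difference among the 9 metabolic genes was that of Pdk4, a kinase that restrains glucose oxidation, with resveratrol (160 in DMSO1 and 268, log2 difference 0.74). Among the 18 partners and regulators it was that of Mef2c with sulfuretin (26.7 in DMSO and 13.6, log2 difference -0.97). Pdk4 and Mef2c were picked after their values were seen.

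**Figure D5:**
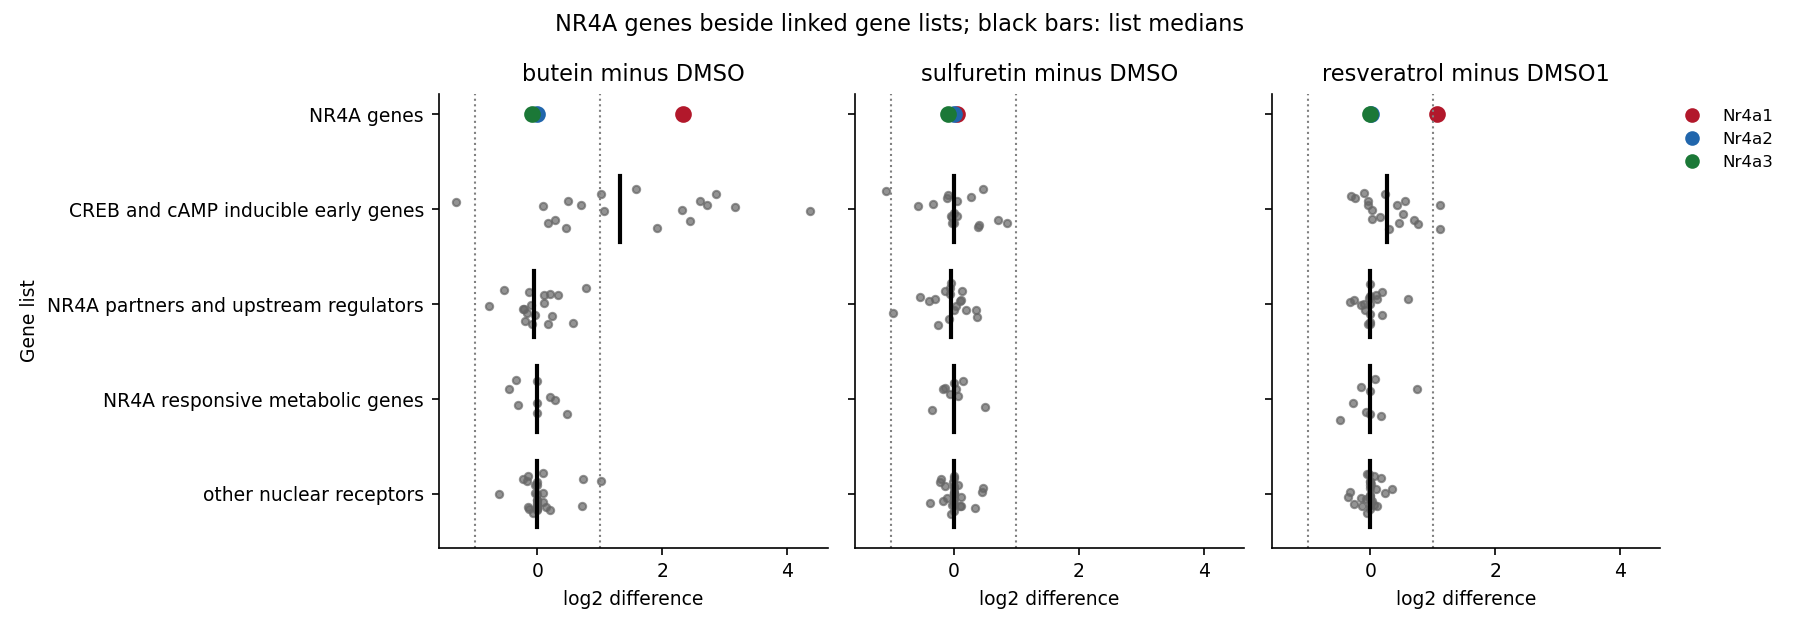
Log2 differences to the own control for the 3 NR4A genes (colours) and the counted genes of 4 linked lists (grey, with black bars at list medians), 1 panel per compound; dotted lines mark 2-fold. With butein Nr4a1 (2.33) lies within the spread of the CREB and cAMP list (median 1.33), while Nr4a2, Nr4a3 and the medians of the other lists sit near 0. Single genes of those lists run from -0.78 to 1.02.

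The genes most like Nr4a1 were sought by the Euclidean distance over the 3 log2 differences (butein, sulfuretin and resveratrol, each to its own control), a description over 3 values of which 2 share the DMSO array. Closest of 11788 genes was Ier5 (distance 0.34), an immediate early gene, at 6.01-fold with butein, 1.19-fold with sulfuretin and 1.96-fold with resveratrol. Next came Dusp1 (0.49; 6.58-fold, 1.04-fold and 1.70-fold), the AP-1 genes Jun (0.55; 5.53-fold, 1.503-fold and 2.11-fold) and Junb (0.56; 3.75-fold, equal to DMSO, and 1.63-fold), and the polo-like kinase gene Plk2 (0.58; 4.80-fold, 1.07-fold and 1.42-fold). Only Ier5 and Dusp1 lay within 0.5. Nr4a2 had 3498 genes within 0.1 and Nr4a3 had 1011, so their nearest genes (Mrc2, Agpat4, Rab6a, Glb1 and Pias4; Plxnb1, Apoa5, Inpp5b, Pdgfb and Fancl) are not distinctive. Past 2-fold higher with both butein and resveratrol were 5 genes, Nr4a1, Atf3, Btg2, Chac1 and Jun, that is 5 of the 252 called with butein and 5 of the 10 called with resveratrol. Sulfuretin was under 2-fold for all 5, as for nearly all counted genes (0.193% were called higher and 0.0482% lower). This does not set the 5 apart.

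The cells carried the marks of adipocytes. All 8 adipocyte markers with a named probe set were at or above the floor on all 5 arrays, with a summed intensity of 20939 to 24692. Of 8 macrophage and blood markers 2 were above it on all arrays and 4, among them Ptprc and Adgre1, on none; their sum was 72.5 in DMSO, 65.5 with butein, 105 in DMSO1 and 107 with resveratrol. Of 6 fibroblast and preadipocyte markers 4 were above it on all arrays (sums from 4419 to 5361), and 2, Dlk1 and Cd34, on none. Endothelial and skeletal muscle markers summed to at most 30.3 and 210. All 8 adipocyte markers were lower with butein (median -0.25) and with resveratrol (-0.11), by less than 2-fold. With sulfuretin 5 of 8 were higher (median 0.01). Over all counted genes 37.1% were lower with butein, 32.6% with sulfuretin and 34.0% with resveratrol. Of the 4 counted fibroblast and preadipocyte markers, 3 were lower with butein (median -0.17), 4 with sulfuretin (-0.03) and 3 with resveratrol (-0.09). Both counted skeletal muscle markers were lower with butein (median -0.34) and with sulfuretin (-0.23), and 1 was lower and 1 equal with resveratrol. The part of these markers in the Nr4a1 result was not tested. In RNA from whole cultures, fewer cells of a type and less RNA per cell cannot be told apart.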

How the data were processed

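Total RNA of 5 groups, 1 array each, was labelled as biotinylated cRNA and read on Affymetrix mouse arrays. The deposited values are RMA intensities, per the submitters' processing notes. Its version is not given in the sources used here, and the range (1.40 to 9340) shows a linear scale. Log2 was taken with no pseudocount. Sorted values coincide nearly within DMSO, butein and sulfuretin and within DMSO1 and resveratrol, so each treatment was compared within its own set.

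Of 45037 probe sets, 34945 name 1 gene, 932 several and 9160 none in the platform annotation. Symbols were updated by gene ID through RefSeq (GRCm38.p6; 34741 matched). A gene was represented by its brightest probe set (highest mean over the arrays). The members and lists were chosen with earlier results of these data known. Named genes are the members, up to 4 genes past 2-fold per list and comparison, and the 5 nearest to each member; others are marked. Nearest genes exclude clone and predicted names.

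The call rule and limma fit were tested on simulated data, and the quantile step on a rescaled copy of the DMSO array. The limma simulation put all arrays on the DMSO scale, so it does not bear on solvent arrays that differ in scale. Alternatives were fold criteria of 1.5 and 3, other probe set rules, joint quantile normalization, centring, other controls and limma. Array number limits the precision. Python 3.11.15, numpy 2.4.6, pandas 2.3.3, matplotlib 3.10.9 and limma 3.58.1 under R 4.3.3 did the computing.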

Additional observations from a re-analysis of the deposited data

How the results depend on the processing

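The count of NR4A genes past 2-fold was the main count under 6 of 12 alternatives for butein (1 gene), 8 of 12 for sulfuretin (0 genes) and 9 of 12 for resveratrol (1 gene). With the other DMSO array, the mean of both DMSO arrays, or joint quantile normalization with the other DMSO array, it was 2 for butein and 1 for sulfuretin, the added gene being Nr4a2 through its solvent gap. Under the rule of a difference larger than the solvent gap it was 2 for butein and 1 for sulfuretin, the added gene being Nr4a3 (-0.12 for each, where the gap was -0.04). It was 0 for butein and resveratrol under limma on deposited and on jointly normalized values, and 0 for resveratrol at a 3-fold criterion. For resveratrol, Nr4a2 reversed to -2.17 with the other DMSO array, -1.08 with the mean of both and -2.59 with joint normalization and the other array, and Nr4a1 fell under the criterion there (0.86, 0.97 and 0.34), so the unchanged count of 1 was then another gene. Nr4a1 kept its sign in the 7 alternatives that changed its value, but these are not 7 separate checks. Limma on deposited values repeats the difference to the mean of both DMSO arrays (2.44 for butein). The solvent gap rule repeats that of joint quantile normalization (2.23 for butein). The other 5 alternatives, namely the 2 fold criteria, the 2 probe set rules and centring, left its value as it was. No paired analysis was possible because each group has 1 array.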

Other observations

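The 4 CRE cores of the Nr4a1 promoter shown above share more than the 5 bases in capitals. Each is preceded by the same bases, so that the 7-base stretch TGCGTCA occurs 4 times within 250 bases before the start. This stretch was searched, on both strands, after it had been seen in Nr4a1. Of 32851 promoters of the same length 2.12% held it at least once and 0.0396% at least 2 times, and 1, that of Nr4a1, held it 4 times. The windows of Nr4a2 and Nr4a3 held it 0 times. Among the 19 promoters of the CREB and cAMP inducible list, 73.7% held at least 1 CRE core and none held 4. Over all promoters the shares were 20.8% and 0.231%, and in the members' GC range 32.7% and 0.578%. None of 19 with 4 cores is thus near the background. The list was chosen as genes known to be induced through CREB, so its share with a core is not a test. All these counts are matches of letters in a single window per start, and they say nothing about which factor binds there.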
